A study of Mus musculus with 8 samples.

Results

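The genes described here are 10 macrophage genes. Ctsk, Mmp12, Gpnmb, Atp6v0d2, Trem2 and Spp1 are known to be raised in macrophages loaded with lipid (foam cells). Chil3, Marco, Cd68 and Siglecf mark macrophages, in particular those of the alveoli, whatever their lipid load. This split of 6 and 4 is by what the genes are known for and not by their values. Genes of the first set can be made by other macrophages too, so the split does not separate lipid load from the number of macrophages. A gene was read from the probe set annotated with its symbol alone. That gave 1 probe set for each of 9 genes, out of 22180 genes in all, and no probe set listed for Spp1, which was not analysed here. The members were chosen by what they are known for and with their measured log2 differences between the genotypes in view, so these differences are given as a description and without a test.

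A mouse array was used on isolated club cells, which secrete proteins into the airways, from lungs of 2 genotypes, Atgl KO/cTg and wt/cTg. Atgl, now named Pnpla2, encodes the lipase that takes the first fatty acid off a stored triglyceride. Controls are wild type for it, and both genotypes carry cTg, which the labels do not expand. There were 4 arrays per genotype, each from RNA of a pool of 3 or 4 mice, with 16 mice behind the Atgl KO/cTg arrays and 14 behind the controls. The mice were 38 to 48 weeks old, on chow and untreated. The labels give neither the sex of the mice nor the cells in which the deletion acts. A pool is a replicate here, and its number is a name that pairs nothing.

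Macrophages that take up more lipid than they can burn or export store it as droplets and become foam cells. In this state they raise a set of genes for lysosomal breakdown and matrix digestion, many of which are also genes of the osteoclast, a relative of the macrophage that resorbs bone. Alveolar macrophages clear surfactant, a lipid-rich film, and foam cells form in the lung when that clearance fails. Macrophages lie on the same airway and alveolar surfaces as the epithelium. In a mixed preparation fewer macrophages and less RNA per macrophage cannot be told apart.

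Upstream sequences are shown for Mmp12 and Ctsk, the members with the widest differences between genotypes, and for Cd68, a member with a narrow one. They are the 250 bases before each transcription start in RefSeq on GRCm38.p6, 5′ to 3′ on the strand of the gene. Capitals mark matches on either strand to AP-1 (TGANTCA), to PU.1 (GAGGAAGT), a factor of the myeloid lineage, and to the E-boxes CACGTG and CATGTG, which the MITF and TFE factors of lysosomal genes can bind. No match overlapped another.
Mmp12 first start (chr9:7344147-7344396, plus strand): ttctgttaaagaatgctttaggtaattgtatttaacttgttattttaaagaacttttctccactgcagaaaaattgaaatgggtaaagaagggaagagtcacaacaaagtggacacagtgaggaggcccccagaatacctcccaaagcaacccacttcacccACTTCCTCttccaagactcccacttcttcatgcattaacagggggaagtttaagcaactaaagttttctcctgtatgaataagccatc
Mmp12 second start (chr9:7347124-7347373, plus strand): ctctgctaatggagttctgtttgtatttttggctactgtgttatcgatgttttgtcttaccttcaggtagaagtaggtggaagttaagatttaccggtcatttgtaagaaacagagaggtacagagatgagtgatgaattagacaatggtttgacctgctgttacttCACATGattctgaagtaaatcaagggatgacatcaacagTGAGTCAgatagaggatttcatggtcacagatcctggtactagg
Ctsk (chr3:95498960-95499209, plus strand): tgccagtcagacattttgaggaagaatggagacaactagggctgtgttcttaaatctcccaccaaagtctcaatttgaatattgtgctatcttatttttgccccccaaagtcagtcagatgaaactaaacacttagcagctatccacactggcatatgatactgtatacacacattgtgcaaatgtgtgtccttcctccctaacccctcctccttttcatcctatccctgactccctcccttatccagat
Cd68 (chr11:69666171-69666420, minus strand): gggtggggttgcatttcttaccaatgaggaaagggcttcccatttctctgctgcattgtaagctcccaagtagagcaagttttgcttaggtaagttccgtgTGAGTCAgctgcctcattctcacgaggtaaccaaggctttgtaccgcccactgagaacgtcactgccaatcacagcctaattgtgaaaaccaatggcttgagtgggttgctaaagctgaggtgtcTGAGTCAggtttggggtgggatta
The window before the second Mmp12 start held 1 match to CATGTG (as CACATG, bases -83 to -78 from that start) and 1 to AP-1 (TGAGTCA, bases -44 to -38). The window before the first Mmp12 start held 1 match to PU.1. The Ctsk window held none of these letters, and the Cd68 window held 2 matches to AP-1. RefSeq windows were found for 9 of the 10 members (all but Atp6v0d2), 11 windows in all. AP-1 matched in 3 of these genes, CATGTG in 2, PU.1 in 2 and CACGTG in 0. Of all 32851 windows of this length, 6.75% held a match to AP-1, 12.3% to CATGTG, 2.44% to PU.1 and 6.02% to CACGTG. These percentages are of single windows, while Mmp12 and Spp1 each have more than 1. Among the measured members, matches lay in Mmp12, with a wide difference, and in Trem2, Cd68 and Siglecf, with narrow ones. Ctsk, Gpnmb, Chil3 and Marco had none. A link between matches and differences was not tested.

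Values are log2 signals, so that 1 unit is a doubling, and a value of 1 gene is not set against that of another. Array medians ran from 5.12 to 5.24. Pnpla2, the deleted gene, read 6.98 ± 0.20 in the pools without it and 8.70 ± 0.11 in the controls (SD, n = 4 each). The difference was -1.72 (SE 0.11, limma adjusted p = 0.000116). Scgb1a1, the defining secretory protein of club cells, read 12.79 to 13.03 in all 8 pools. The macrophage markers Lyz2, lysozyme, and Adgre1, a surface receptor that defines macrophages, read 12.25 to 12.51 and 8.0 to 8.62. Alveolar type 2 cells also make Lyz2. Of 13112 genes tested, 13 passed a limma adjusted p under 0.05, or 0.0991%.

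Mmp12 encodes macrophage metalloelastase, which macrophages secrete to cut elastin. Its log2 signal was 7.38, 7.35, 7.78 and 7.49 in the Atgl KO/cTg pools and 7.20, 6.45, 6.77 and 6.22 in the wt/cTg pools (replicates 1 to 4). Every Atgl KO/cTg pool read above every wt/cTg pool, with wt/cTg replicate 1 close below and the other controls further down. The means were 7.50 ± 0.20 and 6.66 ± 0.43 (SD, n = 4 each), a log2 difference of 0.84 (SE 0.19), or 1.79-fold. Leaving out each pool in turn gave differences of 0.69 (without wt/cTg replicate 4) to 1.02 (without wt/cTg replicate 1).

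Ctsk encodes cathepsin K, the collagen-cutting lysosomal protease of osteoclasts, which foam cells and some fibroblasts also make. Its log2 signal was 8.67, 7.97, 8.84 and 8.81 in Atgl KO/cTg and 7.92, 7.64, 7.50 and 8.05 in wt/cTg. In 3 of the 4 Atgl KO/cTg pools it read above every control, while replicate 2 fell among the controls. The means were 8.57 ± 0.41 and 7.78 ± 0.25 (SD, n = 4 each), a log2 difference of 0.79 (SE 0.19), or 1.73-fold. Without Atgl KO/cTg replicate 2 the difference was 0.99 and the groups did not overlap, which also held without wt/cTg replicate 4 (0.88). Among all 13112 genes tested, ordered from the highest difference down, Mmp12 stood at 19 and Ctsk at 24. The members were chosen with these differences in view, so nothing is read from the ranks.

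Gpnmb, a transmembrane glycoprotein of lysosomes that marks lipid-laden macrophages, came next. It read 8.51, 8.47, 8.95 and 8.72 in Atgl KO/cTg and 8.24, 7.97, 8.81 and 8.28 in wt/cTg. Of the controls, 3 lay below every Atgl KO/cTg pool, and wt/cTg replicate 3 lay among the highest pools. The log2 difference was 0.34 (SE 0.17), and it was 0.50, with groups apart, without that control, 0.22 without wt/cTg replicate 2 and 0.24 without Atgl KO/cTg replicate 3.

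Trem2, a surface receptor that senses lipids, showed the same layout on a smaller scale. It read 6.96, 7.02, 7.35 and 7.12 in Atgl KO/cTg and 6.79, 6.94, 7.23 and 6.82 in wt/cTg, with wt/cTg replicate 3 again the control that lay above most Atgl KO/cTg pools. Its log2 difference was 0.17 (SE 0.13). It was 0.26 without wt/cTg replicate 3, where the groups did not overlap, and 0.09 without Atgl KO/cTg replicate 3. Tyrobp, the adaptor through which Trem2 signals, had a difference of 0.00 (SE 0.07), with a sign that turned in other settings.

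Atp6v0d2 encodes a subunit of the proton pump that acidifies lysosomes, in a form found in osteoclasts and macrophages. It read 9.64, 8.93, 9.99 and 9.69 in Atgl KO/cTg and 9.24, 9.28, 9.46 and 9.61 in wt/cTg. Here the Atgl KO/cTg pools spread over both ends, 3 of them above all controls and replicate 2 below all of them. The log2 difference was 0.17 (SE 0.19). It was 0.38, with groups apart, without Atgl KO/cTg replicate 2 and 0.03 without Atgl KO/cTg replicate 3. Atp6v0d1, the form of the same subunit found in most cells, had a difference of -0.04 (SE 0.08), negative under quantile normalization and median centring too, and positive with array weights, without Atgl KO/cTg replicate 2 and without that pool and wt/cTg replicate 4 together.

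**Figure D1:**
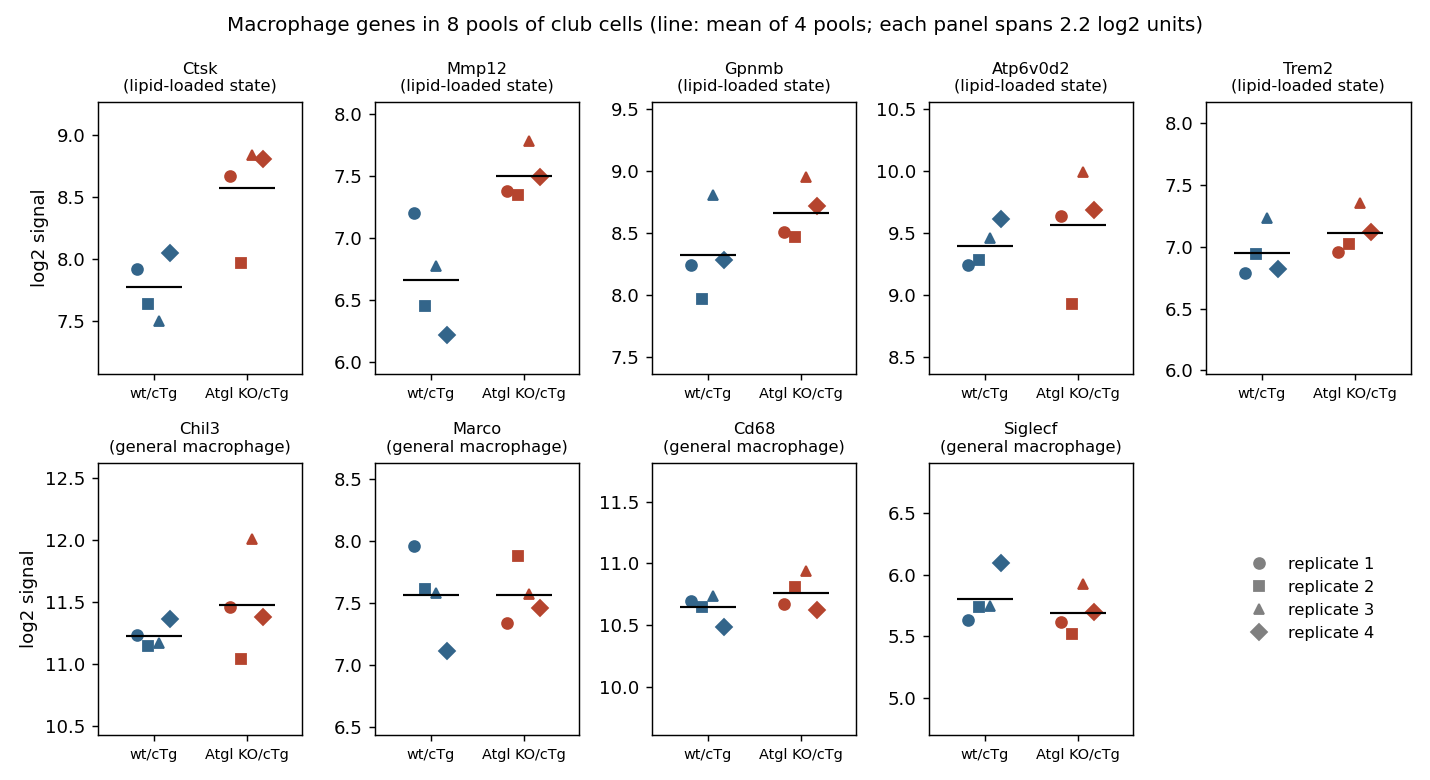
Log2 signal (vertical axis) of the 9 measured macrophage genes in 4 wt/cTg and 4 Atgl KO/cTg pools, 1 panel per gene, with the mean of each group as a line. Mmp12 is the gene whose groups do not overlap, and Atgl KO/cTg replicate 3 (triangle) is the highest pool in 7 of the 9 panels.

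Of the general macrophage genes, Chil3 had the widest difference. Chil3, a secreted chitinase-like lectin (Ym1) abundant in alveolar macrophages, read 11.46, 11.04, 12.01 and 11.38 in Atgl KO/cTg and 11.23, 11.14, 11.17 and 11.36 in wt/cTg. The controls lay close together, while Atgl KO/cTg replicate 3 stood high and replicate 2 lowest of all. The log2 difference was 0.25 (SE 0.16), 0.39 without replicate 2, where the groups did not overlap, and 0.07 without replicate 3.

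Cd68, a lysosomal glycoprotein of macrophages in general, read 10.67, 10.81, 10.94 and 10.62 in Atgl KO/cTg and 10.70, 10.65, 10.74 and 10.49 in wt/cTg. The groups overlapped, with a log2 difference of 0.12 (SE 0.09), which was 0.06 without Atgl KO/cTg replicate 3 or without wt/cTg replicate 4. Marco, a scavenger receptor for particles, read 7.34, 7.88, 7.57 and 7.46 in Atgl KO/cTg and 7.96, 7.61, 7.58 and 7.11 in wt/cTg. Both its highest and its lowest pool were controls, and the group means were 7.56 in both genotypes. Its sign turned with single pools, from -0.15 without wt/cTg replicate 4 to 0.13 without wt/cTg replicate 1.

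Siglecf, a sialic acid-binding receptor of alveolar macrophages that eosinophils also carry, read 5.62, 5.52, 5.92 and 5.70 in Atgl KO/cTg and 5.63, 5.74, 5.75 and 6.09 in wt/cTg. These values lie near the array medians, and the groups overlapped. The log2 difference was -0.11 (SE 0.13), -0.01 without wt/cTg replicate 4, and 0.04 without that pool and Atgl KO/cTg replicate 2 together.

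Set beside each other, all 5 measured genes of the lipid-loaded state lay above 0 and 2 of the 4 general macrophage genes did. The median log2 difference was 0.34 for the first set and 0.06 for the second, against -0.01 over all genes tested, where 47.8% lay above 0. The gap between the medians was 0.28. It ran from 0.15 (without wt/cTg replicate 2) to 0.42 (without wt/cTg replicate 3) when each pool was left out. Mmp12 and Ctsk lay well above the other 3 state genes, and Chil3, a general macrophage gene, lay above Atp6v0d2 and Trem2. Of the 9 measured genes, 1 had groups that did not overlap, with Atgl KO/cTg higher, against 4.35% of all genes tested in either direction (1.74% higher and 2.62% lower). As the genes were chosen with this contrast in view, nothing is read from this count.

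**Figure D2:**
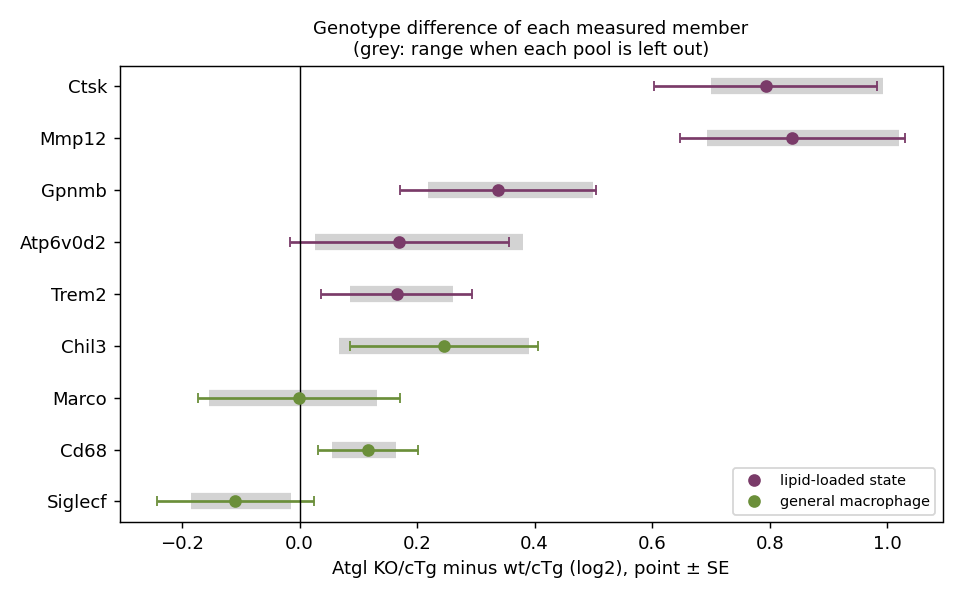
Log2 difference between genotypes (horizontal axis, Atgl KO/cTg minus wt/cTg, point ± SE from the limma fit, 4 pools per genotype) of each measured gene, with the range of differences when each pool is left out in grey. Mmp12 (0.84) and Ctsk (0.79) stand apart from the other genes, whose differences run from -0.11 to 0.34.

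The mean log2 signal of the 5 state genes was 7.95 to 8.58 in the Atgl KO/cTg pools and 7.66 to 7.95 in the wt/cTg pools. The mean of the 4 general genes was 8.77 to 9.11 and 8.76 to 8.88. Taken as a difference within each pool, state minus general, the values were -0.54, -0.86, -0.53 and -0.43 in Atgl KO/cTg and -0.999, -1.13, -0.86 and -0.97 in wt/cTg. Atgl KO/cTg replicates 1, 3 and 4 lay above every control, and replicate 2 lay level with wt/cTg replicate 3. Relative to Cd68 in the same pool, Mmp12 was higher by 0.72 and Ctsk by 0.68 in Atgl KO/cTg, with groups that did not overlap for Mmp12 and did for Ctsk. With Ptprc, the leukocyte antigen CD45, as a covariate, the differences were 1.0 for Mmp12, 0.81 for Ctsk, 0.43 for Gpnmb, 0.24 for Atp6v0d2 and 0.23 for Trem2. In the same fit the general genes had 0.34 (Chil3), 0.18 (Cd68), 0.07 (Marco) and -0.12 (Siglecf), so that Chil3 again lay above Atp6v0d2 and Trem2.

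**Figure D3:**
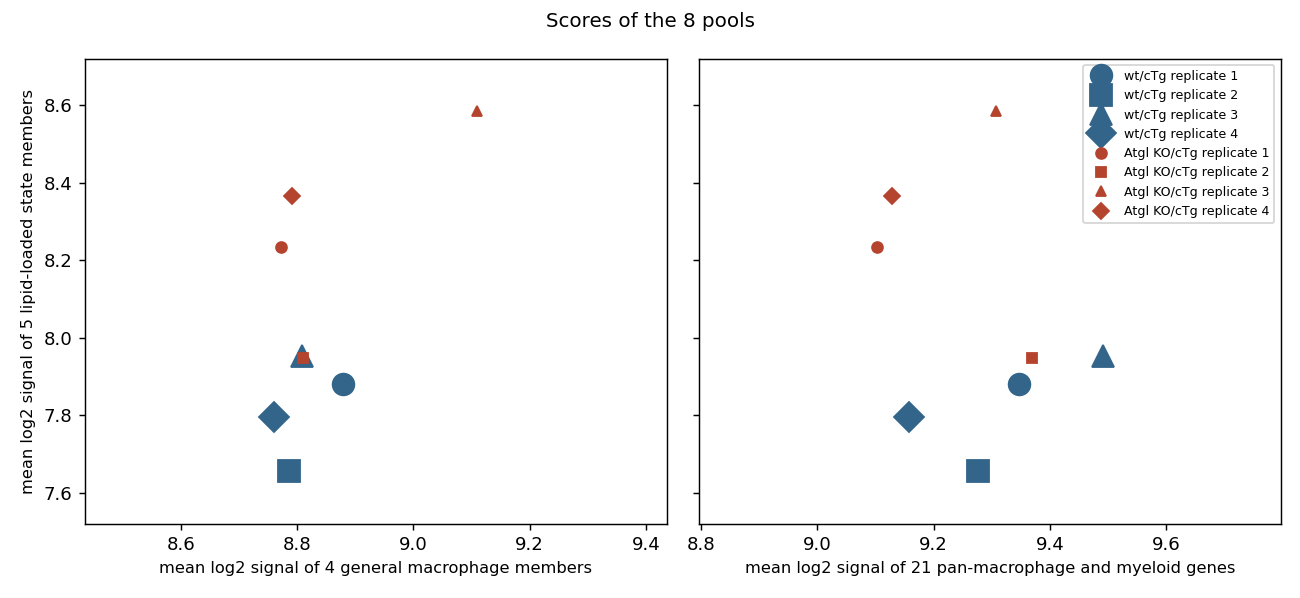
Mean log2 signal of the 5 lipid-loaded state genes (vertical axis) against the mean of the 4 general macrophage genes (left) and of 21 other macrophage and myeloid genes (right), 1 point per pool. Atgl KO/cTg replicates 1, 3 and 4 lie above all controls on the vertical axis, while on the horizontal axes the genotypes overlap.

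Single pools carried much of the spread. Atgl KO/cTg replicate 3, the pool with the youngest lower age (38 to 43 weeks), was the highest of the 8 pools for 7 of the 9 genes: Ctsk, Mmp12, Gpnmb, Atp6v0d2, Trem2, Chil3 and Cd68. Atgl KO/cTg replicate 2 was the lowest of all for Atp6v0d2, Chil3 and Siglecf. In that pool the alveolar macrophage gene list given below read 7.95, under the 8.07 to 8.37 of the other pools, and the list of 10 monocyte and interstitial macrophage genes read 9.22, over the 8.70 to 9.13 of the others. The same pool was highest for the goblet cell (9.29) and neutrophil (9.14) markers given below. It was lowest for the fibroblast and smooth muscle (7.38) and endothelial (8.37) markers. For the remaining marker lists it lay within the range of the other pools. With the midpoint of the age range as a covariate the differences were 0.84 for Mmp12, 0.77 for Ctsk and 0.31 for Gpnmb.

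Whether the genes moved together among pools of the same genotype is a question the choice of members did not use. It was asked of the deviations from the genotype means over all 8 pools, for the 36 pairs of the 9 genes, with an exact permutation test within genotype (576 arrangements, two-sided, smallest possible p 0.00174). Of the pairs, 26 had a positive Pearson r, with a median of 0.31. None passed after Benjamini-Hochberg adjustment over the 36 pairs by this exact permutation test, and 4 had an unadjusted p under 0.05. Atp6v0d2 and Siglecf had the smallest p (r = 0.79, exact permutation p = 0.00868, adjusted 0.312; Spearman rho = 0.90, exact permutation p = 0.00347, adjusted 0.125), and r was 0.91 without the 2 pools farthest from the median of Atp6v0d2. Atp6v0d2 and Chil3 had the highest r (0.89, exact permutation p = 0.066, adjusted 0.383; rho = 0.62, p = 0.156, adjusted 0.469), which was 0.64 without the 2 such pools. Chil3 and Siglecf, both general genes, had an r of 0.76 (exact permutation p = 0.0191, adjusted 0.344) and a rho of 0.52 (exact permutation p = 0.234, adjusted 0.603). Their r was 0.73 without the 2 pools farthest from the median of Chil3. For Gpnmb and Trem2, whose pools lay in a like order, r was 0.82 (exact permutation p = 0.0451, adjusted 0.383; rho = 0.60, p = 0.177, adjusted 0.490). It was -0.16 without wt/cTg replicate 3 and Atgl KO/cTg replicate 3, so that relation rested on these pools. Mmp12 and Ctsk, the genes with the widest differences between genotypes, had an r of 0.17 (exact permutation p = 0.646, adjusted 0.83; rho = 0.05, p = 0.936, adjusted 0.963), and 0.12 without the 2 pools farthest from the median of Ctsk. Ctsk and Atp6v0d2 had an r of 0.82 (exact permutation p = 0.0642, adjusted 0.383) and a rho of 0.81 (exact permutation p = 0.033, adjusted 0.402). Their r was 0.63 without the 2 such pools. With the remaining genes the r of Ctsk was 0.75 (Chil3), 0.63 (Siglecf), 0.13 (Gpnmb), -0.08 (Trem2), -0.33 (Cd68) and -0.51 (Marco). Atp6v0d2 and Marco ran opposite ways (r = -0.64, exact permutation p = 0.0486, adjusted 0.383; rho = -0.81, p = 0.0365, adjusted 0.402), with r = -0.89 without 2 pools.

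Other genes of macrophages were read from 7 fixed lists with 150 distinct genes that are not members, of which 125 were tested. A gene can be on more than 1 list. None of the 125 passed limma's adjusted threshold in either direction, and 20 (16%) had an unadjusted limma p under 0.05, against 7.95% of all genes tested. Groups did not overlap for 4 genes higher in Atgl KO/cTg (Acp5, Plet1, Tcirg1 and Mmp19) and 1 lower (Car2), or 4% of those tested against 4.35% of all genes. The lists were chosen with earlier results of these data known, so nothing is read from either share.

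Among 28 tested genes of lipid-associated macrophages, 18 lay above 0 with a median of 0.02. Acp5, the tartrate-resistant acid phosphatase shared by osteoclasts and foam cells, had the largest difference (0.42, SE 0.14). Lpl, the lipase that feeds macrophages with fatty acids, was at 0.14, and Plin2, the coat protein of lipid droplets, at 0.01, with a sign that turned in other settings. Fabp5, a fatty acid-binding protein, lay lower, at -0.28 (SE 0.12). The mean of the 28 genes was 9.50 to 9.56 in Atgl KO/cTg and 9.39 to 9.52 in wt/cTg.

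The osteoclast list, which holds none of the members, had 8 of 9 tested genes above 0 and a median of 0.15. It shares 1 tested gene, Acp5, with the list of lipid-associated macrophages. Tcirg1, a subunit of the proton pump, was at 0.32 (SE 0.10), and Car2, carbonic anhydrase 2, at -0.62 (SE 0.18). Car2 is made by many cell types. Oscar, Dcstamp and Calcr lay below the level filter.

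Among 17 tested genes of alveolar macrophage identity, 11 lay above 0 with a median of 0.06. Which cells of the pools gave the signals of these genes was not tested. Plet1 was at 0.34 (SE 0.08), with 10.86 to 11.17 in wt/cTg and 11.23 to 11.46 in Atgl KO/cTg. Fabp1, a fatty acid-binding protein, was at -0.65 (SE 0.25), and its lowest value was 7.05 in Atgl KO/cTg replicate 2. Pparg, the receptor that alveolar macrophages need to mature and handle lipid, was at 0.00 (SE 0.14), with a sign that turned in other settings.

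Of the 21 pan-macrophage and myeloid genes, 7 lay above 0 and 14 below, with a median of -0.09. Their mean log2 signal overlapped between genotypes, at 9.10 to 9.37 in Atgl KO/cTg and 9.16 to 9.49 in wt/cTg. Adgre1 was at -0.26 (SE 0.15), Csf1r, the receptor for the growth factor of macrophages, at -0.09 (0.01 without Atgl KO/cTg replicate 4), and Maf, a transcription factor of resident macrophages, at -0.42 (SE 0.17). Lyz2 and Ptprc were at -0.06 and -0.11. Of the 10 monocyte and interstitial macrophage genes, 3 lay above 0 (median -0.13), with Folr2, a folate receptor of tissue macrophages, at -0.40 (SE 0.20). Among 19 factors and receptors that set the state of macrophages the median was 0.04. Mitf and Tfec, of the family that drives lysosomal genes, were at -0.06 and 0.03, both with signs that turned in other settings, and Il34, a ligand of Csf1r, was at 0.30 (SE 0.17).

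Relatives of the members by protein family did not lean either way, with 17 of 34 above 0 and a median of -0.0018. Mmp19, a metalloproteinase, was at 0.46 (SE 0.10) and read 7.53 to 7.60 in Atgl KO/cTg against 6.85 to 7.22 in wt/cTg, with a limma adjusted p of 0.254. Mmp8, the collagenase of neutrophils, was at 0.87 (SE 0.25, limma adjusted p = 0.4). Chil1, a chitinase-like protein, was at 0.21 (SE 0.13). Chil4, a close relative of Chil3, lay below the level filter, at 3.62 to 5.97 in Atgl KO/cTg and 3.26 to 4.16 in wt/cTg. Genes this alike can share probe signal.

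**Figure D4:**
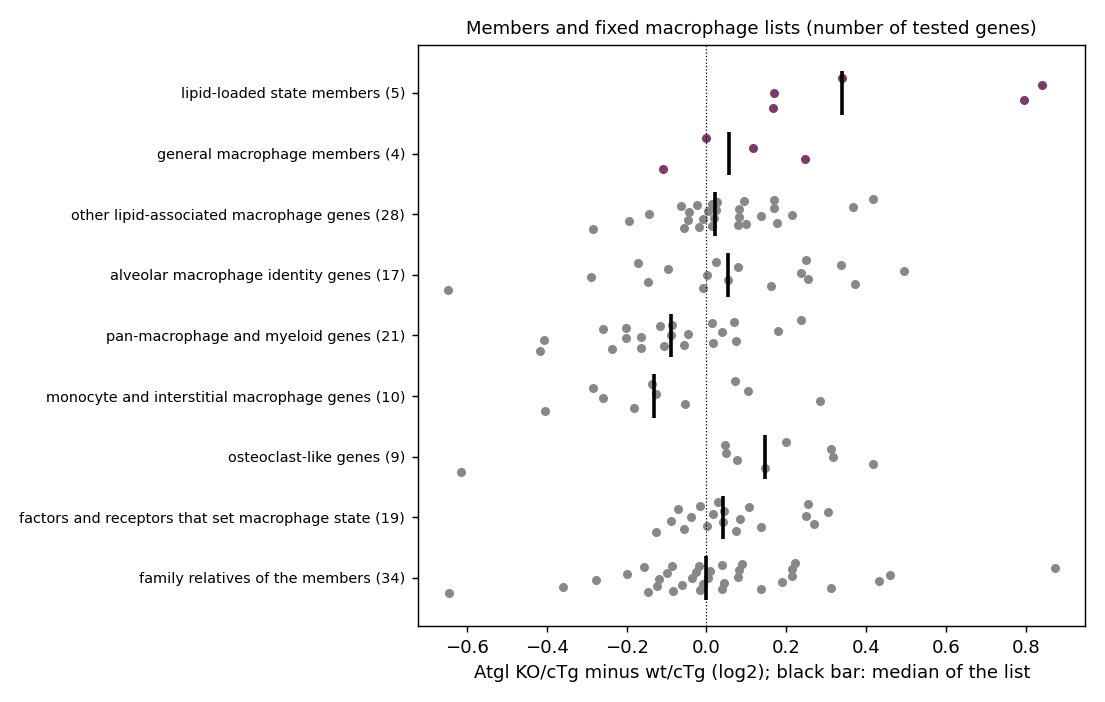
Log2 difference between genotypes (horizontal axis) of each tested gene of the members and of 7 fixed macrophage lists, 1 point per gene, with the median of each list as a black bar. The state genes have a median of 0.34, and the medians of the other lists run from -0.13 to 0.15.

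Markers of other cell types were read in the same pools. Among them limma's adjusted threshold was passed by alveolar type 2 markers only. The 8 alveolar type 2 markers all lay below 0, with mean log2 signals of 10.22 to 10.46 in Atgl KO/cTg and 10.72 to 11.24 in wt/cTg. Of these, 4 fell by limma's adjusted threshold, against 0.0839% of all genes, among them Lamp3 (-1.53, limma adjusted p = 0.0294) and Sftpc (-0.41, 0.0461). The number of these markers that fell was 0 when replicate 1, 3 or 4 of Atgl KO/cTg or replicate 2, 3 or 4 of wt/cTg was left out, with differences of -1.41 to -1.54 for Lamp3 and -0.37 to -0.42 for Sftpc. It was also 0 without the variance trend and after quantile normalization, 2 with age as a covariate and 1 without the 2 pools at the extremes of principal component 1. All 8 fibroblast and smooth muscle markers lay below 0 (7.38 to 7.95 against 7.88 to 8.43), with Col1a1 at -0.09 and Tcf21 at -1.0. All 7 tested neutrophil markers lay above 0 (8.15 to 9.14 against 7.93 to 8.65), with S100a8 at 0.49, and all 7 goblet cell markers did (8.31 to 9.29 against 7.38 to 8.43), with Muc5ac at 1.04. All 6 ciliated cell markers lay above 0 (8.17 to 8.65 against 7.74 to 8.39), with a median of 0.28, and 6 of 7 endothelial markers lay below 0 (8.37 to 8.94 against 8.76 to 9.47), with a median of -0.33. The T and NK cell list had 3 of 8 above 0 and a median of -0.01, and the B cell list 2 of 6 and -0.06. In the dendritic cell list 2 of 7 lay above 0 (6.97 to 7.34 against 7.21 to 7.36), with Cd209a at -0.65. Of 7 eosinophil and mast cell markers 2 passed the level filter, among them Prg2 at 0.64 (SE 0.25), and Epx, Ccr3, Il5ra, Mcpt4 and Ms4a2 lay below it. The 6 tested club cell markers read 12.003 to 12.13 against 11.94 to 12.04. The part of these differences in the values of the macrophage genes was not tested.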

How the data were processed

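Club cells from 8 pools of mice, 4 per genotype by the genotype label, were compared. The authors deposited a log2 signal for each probe set of each array. Which software and normalization they used is not given in the sources here. The values, 1.85 to 13.5 with like medians, show the log2 unit. Per the labels' protocols, 50 ng of RNA was amplified with a NuGEN Ovation Pico kit. Of 41345 probe sets, 23521 had 1 gene symbol, 1814 several and 16010 none. Where a gene had several, the probe set with the highest mean stood for it. Genes with a mean above the median probe set (5.18) were tested, 13112 of 22180. All 9 measured members passed this filter.

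The test between genotypes was limma 3.58.1 in R 4.3.3 (lmFit, eBayes with a variance trend, two-sided, Benjamini-Hochberg over the 13112 genes). In 5 runs of simulated data with 200 of 13112 genes changed by 1.5, this comparison recovered 98.2% of them, with 6.26% false among those called. That change is larger than the widest difference among the members (0.84) and among the listed macrophage genes (0.87). The recovery therefore does not show how often changes as small as these would pass. List scores are means of log2 values over genes. Members and lists were chosen with earlier results of these data known. Genes named beside the members follow a fixed rule: anchors, genes past the threshold, and in each list up to 3 with groups that do not overlap and the one with the largest difference. From marker lists it takes the first tested gene and the largest difference. Promoters are RefSeq windows. Alternatives were other filters, variance priors, scalings, array weights, covariates (age, Ptprc) and pools left out. Figures were drawn with matplotlib 3.10.9. The arrays carry no detection calls, slides or dates used here, so no batch could be set against genotype.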

Additional observations from a re-analysis of the deposited data

Results flagged for a closer look

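Dixon's test asks whether the highest or lowest of the 4 pools of a group lies far from the others; it was run on 152 groups of values, and chance gives about 1 in 20. It marked 7. Adgre1 in wt/cTg read 8.12 in replicate 4 against 8.55 to 8.62 in the others. Fabp5 in Atgl KO/cTg read 10.54 in replicate 2 against 10.87 to 10.94. S100a8 in Atgl KO/cTg read 9.98 in replicate 4 against 10.91 to 10.94. Scgb1a1 in wt/cTg read 12.88 in replicate 1 against 13.02 to 13.03. The mean of the 4 general macrophage genes in Atgl KO/cTg was 9.11 in replicate 3 against 8.77 to 8.81. The mean of the 28 lipid-associated macrophage genes in Atgl KO/cTg was 9.56 in replicate 3 against 9.50 in the others. The goblet cell mean in Atgl KO/cTg was 9.29 in replicate 2 against 8.31 to 8.42.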

How the results depend on the processing

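The count of genes past the threshold over all genes (13) was 7 without a level filter and with age as a covariate, 1 without the variance trend and after quantile normalization, 23 with array weights and 8 without the 2 pools at the extremes of principal component 1, which are wt/cTg replicate 4 and replicate 2 of Atgl KO/cTg. It ran from 1 to 25 when each pool was left out; the cause was not tested. The number of tested list genes past the threshold stayed at 0 in all 19 alternatives. The number of members above 0 was 7 or 8. The gap between the medians of the state and the general genes stayed above 0, from 0.15 to 0.42. Mmp12 ran from 0.69 to 1.02 and Ctsk from 0.70 to 1.08 over the 19 alternatives. The median r of the 36 pairs was 0.32 after quantile normalization and 0.32 without the 2 pools farthest from the median of the first gene, and 0.18 with both changes. No paired analysis was possible because the labels do not say which pools form a set: the replicate numbers follow the order of the samples, and the mouse numbers in the titles are not said to mark sets. Arrays without detection calls do not show which signals lie above background.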
